A study of Homo sapiens with 6 samples.

Results

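The RNAs described here are the long noncoding RNAs that carry a systematic name and were measurably expressed in RCC4, an established line of human clear cell renal carcinoma cells. They were chosen by symbol: LINC followed by a number (long intergenic noncoding RNAs), names ending in AS and a number (antisense to the gene in the stem of the name), and names ending in DT (divergent transcripts, which start near the gene in the stem and run away from it). A mean of 10 or more raw counts over the 6 libraries was also required, and SOCS2-AS1 and SOCS3-DT were left out. Of 61541 genes listed, 4688 had such a symbol, 3087 of them with 0 counts in every library, and 281 were members: 73 LINC RNAs, 139 AS RNAs and 69 DT RNAs. The choice used the mean count over both groups, so the level of the members is a description. It did not use the contrast between the groups, but a member could reach the minimum through 1 group alone. USP30-AS1 and HOXC-AS2, for example, did so through the treated libraries, and counts of called members are read with that limit.

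Long noncoding RNAs are transcribed by RNA polymerase II, mostly capped, spliced and polyadenylated like messenger RNAs, but hold no long open reading frame. They are usually less abundant than messenger RNAs and vary more between cell types. Antisense RNAs can share exon sequence with the coding gene on the other strand, whereas divergent transcripts commonly share a bidirectional promoter region with it. Tumour necrosis factor acts through NF-kappaB, which binds near noncoding as well as coding genes.

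Poly(A) RNA was sequenced as native molecules on nanopores, so each read is 1 RNA strand. There were 3 untreated replicates and 3 replicates in which the cells had 1000 U/mL of the cytokine interferon gamma (IFNγ) and 25 ng/mL of tumour necrosis factor (TNF) for 24 h. The titles call the replicates biological, each was taken from 3 culture flasks, and all come from the same line in the same complete medium with serum. RCC4 is a line that has lost the VHL protein, so hypoxia-inducible factor is stabilised without hypoxia in both groups.

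Library totals lay between 3626000 and 4406296 counts. Levels are CPM, that is counts relative to library size with TMM factors. A gene was called where its Benjamini-Hochberg value from the quasi-likelihood test of edgeR, adjusted over 10067 genes, was under 0.05. A count of 0 allows up to 3 counts, between 0.681 and 0.827 CPM across libraries. All 9 renal carcinoma epithelial markers were detected, with a summed level of 6666 to 8249 CPM in untreated and 8771 to 11929 CPM in treated libraries, and the part of this in the results was not tested. Of these markers VIM was called higher (log2 fold change 0.66, SE 0.15, adjusted p = 0.0274, edgeR), and PAX8 and KRT19 were called lower (log2 fold change -0.79, SE 0.19, adjusted p = 0.0316 and log2 fold change -1.08, SE 0.20, adjusted p = 0.00995, edgeR). Without VIM the sum overlapped between the groups, at 2199 to 3304 CPM untreated and 2446 to 3822 CPM treated. Of 5 leukocyte markers 4 were at 0, all 3 endothelial markers were at 0, and of 5 fibroblast markers only COL1A1 had counts, at 44.5 to 63.3 CPM in untreated and 24.5 to 46.5 CPM in treated libraries. The leukocyte marker CD68 shares 81.6% of its exon bases with another gene on its strand. Reads there were left uncounted, so its 0 says little. Untreated replicate 3 stood apart: 17 of the 281 members were more than 2-fold above and 22 more than 2-fold below both other untreated libraries, against 7 and 18 for treated replicate 3, and 2 to 6 and 3 to 8 for the other 4 libraries. Values without it are given where a result rests on it.

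Promoter windows are shown for 5 loci at which a member was called, because they let the letters be set beside the response. The first 3 belong to members that were higher in treated cells and the last 2 to members that were lower. Each is the RefSeq window (GRCh38.p14) from 250 bases before to 50 bases after the start site, except at ZC3H12A, where the 250 bases before its start hold the start of ZC3H12A-DT on the other strand. Capitals mark matches, on either strand, to TTCNNNGAA (the core of the gamma activated site), the core of the interferon stimulated response element (GAAA, any 2 bases, GAAA), the core of the NF-kappaB site (GGG, any 5 bases, CC) or ACGTG (the core of the hypoxia response element).
LINC01358 (chr1:59020226-59020525, plus strand): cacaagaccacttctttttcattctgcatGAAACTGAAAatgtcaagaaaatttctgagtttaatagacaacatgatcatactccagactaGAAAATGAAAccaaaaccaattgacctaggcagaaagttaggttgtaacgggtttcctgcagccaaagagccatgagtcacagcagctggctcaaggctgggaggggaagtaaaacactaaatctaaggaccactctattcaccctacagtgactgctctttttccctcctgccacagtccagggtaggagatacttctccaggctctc
ARHGAP29-AS1 (chr1:94247618-94247917, plus strand): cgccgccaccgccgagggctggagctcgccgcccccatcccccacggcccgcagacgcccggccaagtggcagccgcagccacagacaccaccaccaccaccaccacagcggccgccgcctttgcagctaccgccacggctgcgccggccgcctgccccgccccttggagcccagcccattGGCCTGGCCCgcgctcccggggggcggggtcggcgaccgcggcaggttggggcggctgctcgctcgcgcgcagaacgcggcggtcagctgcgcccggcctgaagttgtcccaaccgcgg
ZC3H12A and ZC3H12A-DT (chr1:37474330-37474579, plus strand): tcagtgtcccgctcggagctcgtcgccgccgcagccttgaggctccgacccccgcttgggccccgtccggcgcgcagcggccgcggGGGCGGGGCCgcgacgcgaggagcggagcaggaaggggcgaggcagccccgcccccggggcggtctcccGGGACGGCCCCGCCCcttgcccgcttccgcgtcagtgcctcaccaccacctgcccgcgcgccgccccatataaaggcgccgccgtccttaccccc
LINC01508 (chr9:90433440-90433739, minus strand): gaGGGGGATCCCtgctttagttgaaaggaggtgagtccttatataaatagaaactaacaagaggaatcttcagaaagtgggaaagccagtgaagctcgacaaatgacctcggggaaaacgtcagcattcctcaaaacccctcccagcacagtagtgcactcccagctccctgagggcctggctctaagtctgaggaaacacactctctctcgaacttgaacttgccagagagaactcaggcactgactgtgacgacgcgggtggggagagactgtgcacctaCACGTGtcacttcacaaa
LINC02901 (chr6:158869564-158869863, plus strand): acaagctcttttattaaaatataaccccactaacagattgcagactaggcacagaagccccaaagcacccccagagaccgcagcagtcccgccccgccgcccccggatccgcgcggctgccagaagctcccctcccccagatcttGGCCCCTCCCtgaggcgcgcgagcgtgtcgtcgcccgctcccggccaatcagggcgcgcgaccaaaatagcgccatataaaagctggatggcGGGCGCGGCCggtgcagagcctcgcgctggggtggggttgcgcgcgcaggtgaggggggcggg

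In these windows, positions are counted from the start site, with -1 the base before it. LINC01358 held the interferon response element core at -221 (GAAACTGAAA) and again at -159 (GAAAATGAAA). Its RefSeq start lay 86833 bases from the outermost start in the deposited annotation, inside the gene. ARHGAP29-AS1 had 1 match to the NF-kappaB core, at -69. The ZC3H12A window had 4 matches to the NF-kappaB core, 3 of them overlapping, and the start of ZC3H12A-DT lay 148 bases from that of ZC3H12A. LINC01508 had 1 NF-kappaB core match (GGGGGATCCC) at -248 and the palindrome CACGTG after its start, which counts as an ACGTG match on each strand. LINC02901 had 2 NF-kappaB core matches and no other.

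Over all members with a window (220 of 281), the NF-kappaB core stood in 155 windows (70.5%), against 58.7% of the 35116 promoters of the RefSeq table. The hypoxia core stood in 28.6% of members' windows and 21.4% of all promoters. The gamma activated site core stood in 10 members' windows (4.55% against 7.66% of all promoters) and the interferon response element core in 4 (1.82% against 3.57%). Among called members, 9 of those higher and 7 of those lower had a window. The NF-kappaB core stood in 6 of the 9 and 6 of the 7, and the 2 interferon motifs in 1 window each of the 9 (MMP25-AS1 and LINC01358) and in none of the 7. These shares describe letters in the windows, with no test, and 145 of the 220 RefSeq starts lay within 100 bases of the start in the deposited annotation.

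Treatment moved some members strongly in each direction. Of 263 members that passed the filter on low counts, 26 were called: 14 were higher (5.32%) and 12 lower (4.56%) in treated cells. Over all 10067 genes tested 8.14% were called, 5.58% as higher and 2.55% as lower. The 18 members not tested all had a mean under 20 counts. In all 26 called members the treated and untreated libraries did not overlap, which the call itself favours, so it is no separate support. None of the 26 shared exon bases with another gene on its strand. At an unadjusted edgeR p under 0.05 there were 69 members of 263, against 19.8% of all genes. Without untreated replicate 3, 39 members were called, 25 of the 26 among them. Of all 10239 genes tested in that analysis, 733 were higher and 445 lower. With library totals in place of TMM, 12 members were higher and 16 lower, and of all 10067 genes 485 were higher and 364 lower.

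**Figure D1:**
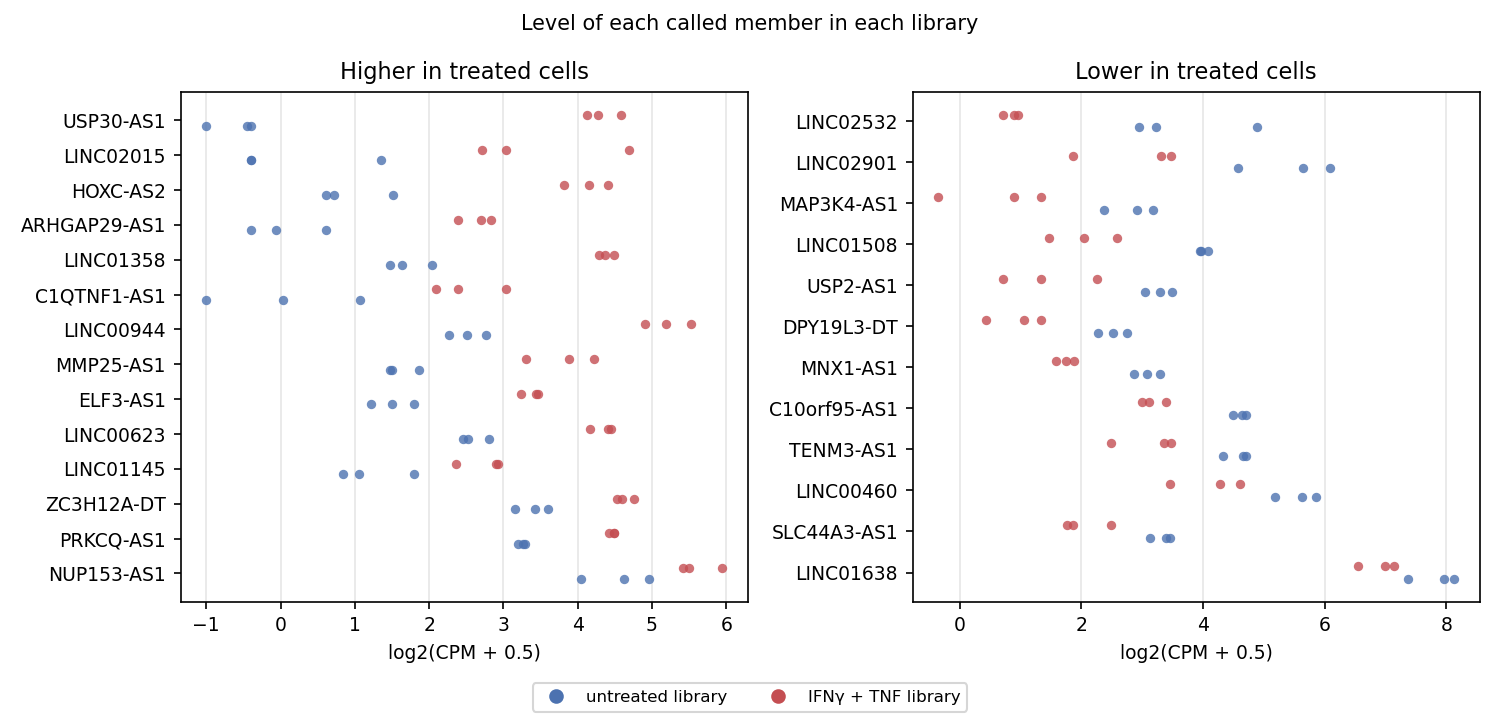
Level of each of the 26 called members in each library, as log2(CPM + 0.5), with 1 row per member and 1 point per library (blue, untreated, n = 3; red, IFNγ and TNF, n = 3). Rows run from the largest to the smallest fold change, and in every row the treated points lie on one side of the untreated points.

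The largest rise was in USP30-AS1, which is transcribed antisense to USP30, the gene of a mitochondrial deubiquitinase (chr12:109052349-109053984, minus strand). Its levels were 0, 0.259 and 0.228 CPM in untreated replicates 1, 2 and 3, from 0, 1 and 1 counts, and 18.8, 16.9 and 23.4 CPM in treated replicates 1, 2 and 3. USP30-AS1 thus went from the detection limit to a level that all 3 treated libraries shared. The ratio of summed counts per library size was 118 (95% exact interval 32.2 to 977, counting error only; edgeR adjusted p = 5.82e-05). USP30 itself had 8.38, 8.01 and 7.97 CPM untreated and 3.75, 4.74 and 2.00 CPM treated, lower in every treated library but not called (log2 fold change -1.19, SE 0.37, adjusted p = 0.0962, edgeR). The 2 genes share 275 exon bases on opposite strands, and reads were counted by strand.

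ARHGAP29-AS1, at the gene of a GTPase-activating protein (chr1:94247819-94411036, plus strand), had 0.262, 1.03 and 0.455 CPM untreated and 6.64, 4.74 and 5.99 CPM treated (log2 fold change 3.24, SE 0.51, adjusted p = 0.00436, edgeR). Without untreated replicate 2 its log2 fold change was 3.88 (edgeR adjusted p = 0.0118). Its groups were well apart, whereas ARHGAP29 varied between replicates, with 6.28, 16.5 and 34.4 CPM untreated and 12.1, 48.7 and 26.8 CPM treated (log2 fold change 0.62, SE 0.60, adjusted p = 0.689, edgeR). MMP25-AS1, antisense to the gene of a membrane-anchored matrix metalloproteinase (chr16:3037400-3059370, minus strand), had 3.14, 2.33 and 2.28 CPM untreated and 18.2, 14.2 and 9.41 CPM treated (log2 fold change 2.42, SE 0.36, adjusted p = 0.00353, edgeR). MMP25 was listed at 0 in each untreated library and had 2.31, 1.81 and 1.14 CPM in the treated libraries, too few counts to test.

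ELF3-AS1 overlaps ELF3, the gene of an ETS transcription factor of epithelial cells (chr1:201995696-202010463, minus strand). Its level was 1.83, 2.33 and 2.96 CPM in the untreated and 8.95, 10.4 and 10.6 CPM in the treated libraries (log2 fold change 2.05, SE 0.34, adjusted p = 0.00546, edgeR). ELF3 did not follow, with 2.62, 4.14 and 3.19 CPM untreated and 4.33, 4.51 and 1.71 CPM treated, groups that overlap (log2 fold change 0.10, SE 0.45, adjusted p = 0.951, edgeR). The sign of that small ELF3 difference changed in 4 of 13 alternative analyses. PRKCQ-AS1, which starts 118 bases from the gene of protein kinase C theta, had 8.64, 9.31 and 9.11 CPM untreated and 21.9, 21.0 and 22.0 CPM treated (log2 fold change 1.26, SE 0.22, adjusted p = 0.00751, edgeR). Both groups of PRKCQ-AS1 were tight, with SDs of 0.343 and 0.558 CPM (n = 3 each), and PRKCQ had at most 1.58 CPM in any library and was not tested.

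NUP153-AS1, beside the gene of a nuclear pore protein, was the most abundant per kilobase of exon among the members that rose. It had 24.1, 30.5 and 15.9 CPM untreated and 60.9, 42.4 and 44.5 CPM treated (log2 fold change 1.07, SE 0.28, adjusted p = 0.0471, edgeR). NUP153 was not called (log2 fold change 0.39, SE 0.24, adjusted p = 0.458, edgeR). C1QTNF1-AS1, at the gene of a secreted C1q domain protein, rested on few counts, with 0.524, 0 and 1.59 CPM untreated and 3.75, 4.74 and 7.70 CPM treated (log2 fold change 2.82, SE 0.72, adjusted p = 0.0461, edgeR). The 0 in untreated replicate 2 allows up to 0.778 CPM. The paired gene C1QTNF1 was listed higher in every treated library but too low to test, at 0, 0 and 0.228 CPM untreated and 0.578, 1.35 and 0.856 CPM treated. These are 0, 0 and 1 counts against 2, 6 and 3, close to the 3 counts that a 0 allows. Untreated replicate 3 was the high untreated library, and without it the log2 fold change of C1QTNF1-AS1 was 4.20 (edgeR adjusted p = 0.00572). Its call was lost in 6 of 14 alternative analyses, with an edgeR adjusted p of up to 0.194, without treated replicate 3.

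HOXC-AS2 lies in the HOXC cluster of homeobox genes, which set positional identity (chr12:53993810-53996785, minus strand). It had 2.36, 1.03 and 1.14 CPM untreated and 17.3, 13.5 and 20.8 CPM treated (log2 fold change 3.49, SE 0.39, adjusted p = 6.55e-04, edgeR). None of the 3 HOXC coding genes tested was called. HOXC10 had a log2 fold change of -0.64 (edgeR adjusted p = 0.159), HOXC9 -1.26 (edgeR adjusted p = 0.151) and HOXC4 -0.21 (edgeR adjusted p = 0.894). HOXC6, whose gene spans HOXC-AS2 on the other strand, was higher in every treated library but too low to test, at 1.83, 2.07 and 2.05 CPM untreated and 2.31, 2.93 and 4.56 CPM treated. HOXC-AS1, the nearest other antisense RNA of the cluster, was under the count minimum and listed lower in every treated library, at 1.31, 0.776 and 0.683 CPM untreated and 0, 0.226 and 0 CPM treated. These are 5, 3 and 3 counts against 0, 1 and 0, close to the 3 counts that a 0 allows. HOXC-AS3 had 3.14, 2.59 and 3.42 CPM untreated and 2.31, 2.48 and 2.28 CPM treated (edgeR adjusted p = 0.702). The HOXA and HOXD antisense members were not called either. HOXA-AS2 was lower in every treated library, with 41.6, 38.8 and 33.9 CPM untreated and 27.7, 21.0 and 12.3 CPM treated (log2 fold change -0.91, SE 0.29, adjusted p = 0.108, edgeR), and HOXD-AS2 had a log2 fold change of -0.20 (edgeR adjusted p = 0.771).

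Of the LINC members, 5 rose. LINC00944 (chr12:126729787-126772519, minus strand) had 6.28, 5.17 and 4.33 CPM untreated and 35.8, 45.4 and 29.4 CPM treated (log2 fold change 2.81, SE 0.28, adjusted p = 2.98e-04, edgeR). LINC01358, whose window holds the pair of interferon response element cores (chr1:58933643-59240555, plus strand), had 2.62, 3.62 and 2.28 CPM untreated and 19.1, 20.1 and 22.0 CPM treated (log2 fold change 2.83, SE 0.29, adjusted p = 3.77e-04, edgeR). LINC00623 (chr1:120913184-121009291, plus strand) had 5.24, 6.46 and 5.01 CPM untreated and 21.4, 17.4 and 20.8 CPM treated (log2 fold change 1.83, SE 0.26, adjusted p = 0.00249, edgeR). In these 3 RNAs all treated libraries lay at 17.4 CPM or above and all untreated libraries at 6.46 CPM or below. LINC01145 had 1.57, 1.29 and 2.96 CPM untreated and 4.62, 7.00 and 7.13 CPM treated (log2 fold change 1.66, SE 0.43, adjusted p = 0.0472, edgeR). LINC02015 had 0.262, 0.259 and 2.05 CPM untreated and 6.06, 7.67 and 25.4 CPM treated (log2 fold change 3.81, SE 0.82, adjusted p = 0.0210, edgeR). Treated replicate 3 was by far the highest for LINC02015, and without it the log2 fold change was 2.92 (edgeR adjusted p = 0.0826). Without untreated replicate 2 it was 3.41 (edgeR adjusted p = 0.0845), and without untreated replicate 3, the high untreated library, 5.47 (edgeR adjusted p = 0.00240).

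The largest fall was in LINC02532 (chr6:106705328-106788148, minus strand), with 8.90, 7.24 and 29.1 CPM untreated and 1.44, 1.35 and 1.14 CPM treated (log2 fold change -3.50, SE 0.63, adjusted p = 0.00837, edgeR). Untreated replicate 3 was the high library. Without it the log2 fold change was -2.60 (edgeR adjusted p = 0.00209), and without treated replicate 3 it was -3.40 (edgeR adjusted p = 0.0522). LINC02901 (chr6:158869848-158919105, plus strand) fell from 49.5, 67.7 and 23.5 CPM to 10.7, 9.48 and 3.14 CPM (log2 fold change -2.58, SE 0.49, adjusted p = 0.0115, edgeR). Here untreated replicate 3 was the low library of its group, and without it the log2 fold change was -2.91 (edgeR adjusted p = 1.98e-04), whereas its call was lost without treated replicate 2 (edgeR adjusted p = 0.0510).

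LINC01508 (chr9:90300885-90433566, minus strand) had 15.2, 15 and 16.4 CPM untreated, a narrow range, and 5.49, 3.61 and 2.28 CPM treated (log2 fold change -2.03, SE 0.34, adjusted p = 0.00628, edgeR). LINC00460, an RNA described at raised levels in several carcinomas, had 57.3, 48.9 and 36.0 CPM untreated and 24.0, 19 and 10.6 CPM treated (log2 fold change -1.41, SE 0.32, adjusted p = 0.0256, edgeR). LINC01638 (chr22:27221349-27225134, minus strand) was the most abundant member in CPM and per kilobase of exon. It had 250.3, 279 and 165 CPM in the untreated and 141, 127 and 93.0 CPM in the treated libraries (log2 fold change -0.94, SE 0.24, adjusted p = 0.0482, edgeR). Its treated libraries were lower, but its call was lost in 9 of 14 alternative analyses.

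The AS and DT members that fell lie at genes of varied function. C10orf95-AS1 (chr10:102449816-102461106, plus strand) had 25.7, 22.0 and 24.6 CPM untreated and 7.51, 8.12 and 9.98 CPM treated (log2 fold change -1.49, SE 0.24, adjusted p = 0.00453, edgeR). TENM3-AS1, beside the gene of the cell adhesion receptor teneurin 3, had 24.9, 25.6 and 19.6 CPM untreated and 9.82, 10.6 and 5.13 CPM treated (log2 fold change -1.44, SE 0.31, adjusted p = 0.0202, edgeR). TENM3 was lower in every treated library too, at 16.2, 17.1 and 33.9 CPM untreated and 12.4, 10.8 and 5.42 CPM treated, and was not called (log2 fold change -1.23, SE 0.40, adjusted p = 0.107, edgeR). MNX1-AS1 starts 142 bases from MNX1, the gene of a homeobox factor of motor neurons and pancreas. It had 6.81, 9.31 and 7.97 CPM untreated and 3.18, 2.48 and 2.85 CPM treated (log2 fold change -1.50, SE 0.33, adjusted p = 0.0245, edgeR). MNX1 showed overlapping groups, 17.8, 18.6 and 23.9 CPM untreated and 20.8, 17.2 and 21.4 CPM treated (edgeR adjusted p = 0.973).

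MAP3K4-AS1, at the gene of a kinase upstream of p38 and JNK, had 4.71, 8.53 and 7.06 CPM untreated and 2.02, 1.35 and 0.285 CPM treated (log2 fold change -2.44, SE 0.55, adjusted p = 0.0254, edgeR). USP2-AS1, at another deubiquitinase gene, had 10.7, 9.31 and 7.74 CPM untreated and 2.02, 4.29 and 1.14 CPM treated (log2 fold change -1.85, SE 0.46, adjusted p = 0.0403, edgeR). Without treated replicate 2 the log2 fold change of USP2-AS1 was -2.48 (edgeR adjusted p = 0.0229). MAP3K4 overlapped between groups and was not called (edgeR adjusted p = 0.540). USP2 was too low to test, and listed lower in every treated library, at 1.57, 1.55 and 0.683 CPM untreated and 0, 0.226 and 0 CPM treated. These are 6, 6 and 3 counts against 0, 1 and 0, close to the 3 counts that a 0 allows. DPY19L3-DT, divergent from a mannosyltransferase gene, was the lone DT member called lower, with 5.24, 6.21 and 4.33 CPM untreated and 2.02, 1.58 and 0.856 CPM treated (log2 fold change -1.80, SE 0.43, adjusted p = 0.0327, edgeR). DPY19L3 was also lower in every treated library but too low to test, at 2.62, 2.33 and 4.33 CPM untreated and 0.289, 1.35 and 2.00 CPM treated. SLC44A3-AS1, at a gene of the choline transporter-like family, had 9.95, 8.27 and 10.5 CPM untreated and 2.89, 3.16 and 5.13 CPM treated (log2 fold change -1.36, SE 0.34, adjusted p = 0.0428, edgeR).

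Of the 26 calls, 11 held in all 14 alternative analyses of the fit: USP30-AS1, HOXC-AS2, ARHGAP29-AS1, LINC01358, LINC00944, MMP25-AS1, ELF3-AS1, LINC00623, PRKCQ-AS1, LINC01508 and C10orf95-AS1. The other 15 kept their direction and missed the threshold in 1 to 9 of them. Over the same 14 analyses, the count of members called lower lay between 4 (without untreated replicate 2 or treated replicate 3) and 29 (with the replicate number as a block). That of members called higher lay between 9 (without treated replicate 3) and 20 (with the block). Without untreated replicate 3 they were 22 and 17. Of all genes tested, 107 were lower without untreated replicate 2, 96 without treated replicate 3 and 606 with the block. Those higher numbered 359 without treated replicate 3 and 907 with the block.

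Beyond the single calls, most members lay lower in treated cells. Of the 263 tested, 181 (68.8%) had a negative log2 fold change and 82 a positive one, and the median was -0.24. Over all genes tested 52.7% were negative and the median was -0.03. Groups did not overlap, with treated below untreated, in 65 members (24.7%), against 12.0% of all genes. With treated above untreated they did not overlap in 33 members (12.5%), against 13.9% of all genes. The medians were -0.24 for 67 LINC RNAs, -0.21 for 134 AS RNAs and -0.35 for 62 DT RNAs, and the share with a negative log2 fold change stayed between 63.7% and 73.8% over the alternative analyses. Without untreated replicate 3 that share was 65.8% and the median -0.29. In bulk RNA, fewer cells with an RNA and less of it per cell cannot be told apart.

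**Figure D2:**
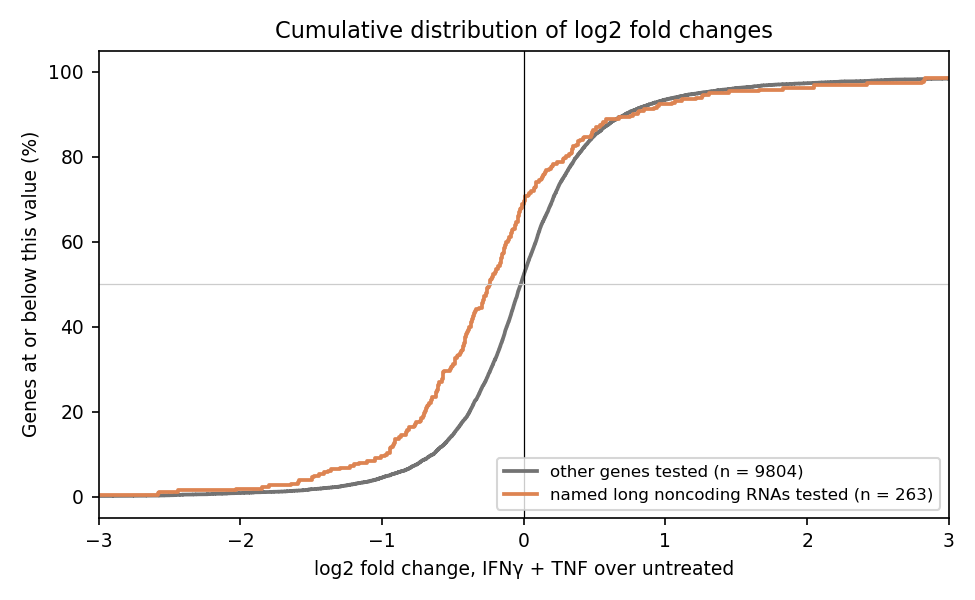
Cumulative share of genes (%) at or below each log2 fold change (treated over untreated), for the 263 tested members (orange) and all other genes tested (grey), drawn from -3 to 3. The members' curve lies to the left around the middle, crossing 50% near -0.24, and the curves come together above 0.5.

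Members were then set beside coding genes of like depth. Of 3280 protein-coding genes with a mean of 10 to under 50 counts, the median log2 fold change was -0.07 and 11.6% lay lower without overlap. For the 211 tested members in that range these were -0.23 and 21.8%. Other genes of long noncoding types (186 tested, types from GENCODE 29) had a median of -0.15, with 20.4% lower without overlap, and 12 (6.45%) were called in each direction. The 142 tested coding genes paired with members had a median of 0.00, with 9 called higher (6.34%) and 2 lower (1.41%). Of all genes tested, 5.58% were called higher and 2.55% lower. With library totals in place of TMM the median of all genes moved from -0.03 to -0.13 and that of the members from -0.24 to -0.35. The members' median minus that of all genes was -0.21 with TMM and -0.22 with library totals.

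Summed over the 281 members, the level was 3160, 3063 and 2831 CPM in untreated replicates 1, 2 and 3, and 2717, 2566 and 2438 CPM in treated replicates 1, 2 and 3. The groups did not overlap. The means were 3018 ± 169 and 2574 ± 139.9 CPM (SD, n = 3 each), a difference of -444.6 CPM, and -333 CPM without LINC01638. As a share of all counts, members held 0.307% to 0.314% of untreated and 0.236% to 0.258% of treated libraries. By kind of name, LINC RNAs summed to 1186, 1189 and 992 CPM untreated and 875, 855 and 770 CPM treated, and DT RNAs to 531, 501 and 540 CPM untreated and 479, 455 and 454 CPM treated. AS RNAs overlapped between the groups, at 1443, 1373 and 1299 CPM untreated and 1363, 1255 and 1214 CPM treated. The paired coding genes overlapped as well, between 11172 and 12045 CPM untreated and between 11722 and 11953 CPM treated.

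**Figure D3:**
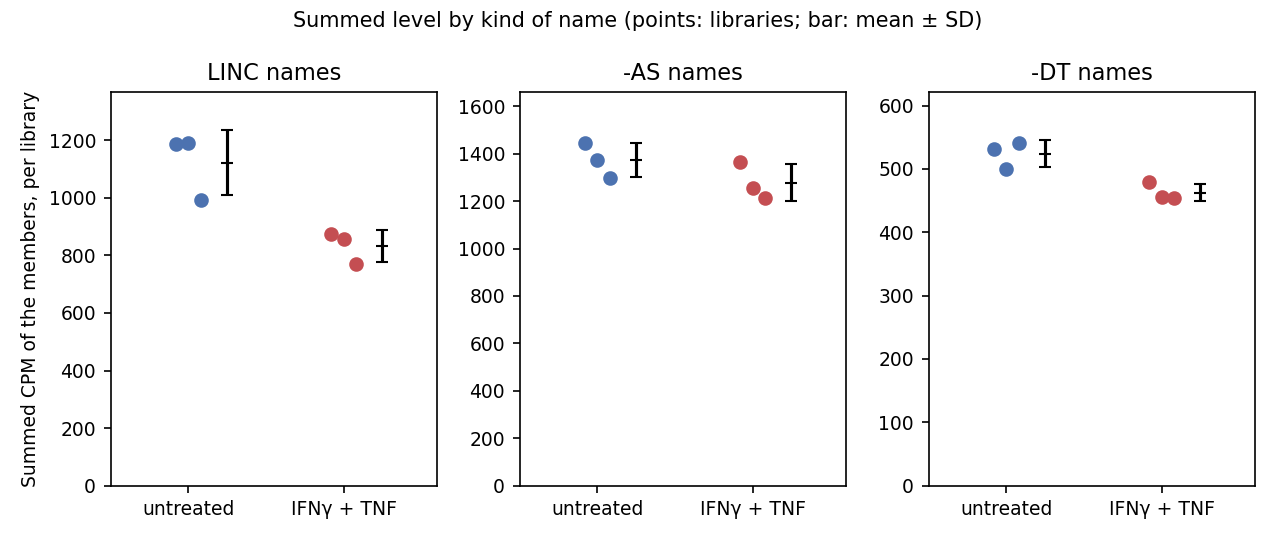
Summed CPM of the members in each library by kind of name, with 1 point per library (untreated, blue; treated, red; n = 3 each) and the mean ± SD as a bar beside them. The 3 treated points lie below the 3 untreated points for LINC and DT names, and the groups overlap for AS names.

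The most abundant members in CPM after LINC01638 were not called. AGAP2-AS1 had 83.5, 79.1 and 77.9 CPM untreated and 124, 91.2 and 128 CPM treated (log2 fold change 0.51, SE 0.19, adjusted p = 0.161, edgeR). AGAP2, the gene on its other strand, had at most 0.856 CPM in any library. LINC01116 had 99.2, 92.6 and 58.8 CPM untreated and 77.1, 69.3 and 65.3 CPM treated (edgeR adjusted p = 0.667). LINC00839 was lower in every treated library, at 83.3, 80.7 and 74.5 CPM untreated and 58.9, 48.5 and 47.9 CPM treated (log2 fold change -0.62, SE 0.18, adjusted p = 0.0722, edgeR). FAM131B-AS2, the one member annotated on the same strand as its paired gene, had 76.2, 84.0 and 48.7 CPM untreated and 48.8, 46.5 and 35.4 CPM treated (edgeR adjusted p = 0.161), and FAM131B was at 0 in all libraries. At the lower edge of the rule, LINC01273, LINC02454 and MAN1B1-DT stood just inside with a mean of 10 counts, and LINC02709, SRP54-AS1 and TOLLIP-DT just outside with 9.83 counts.

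Next, members were set beside the coding gene in the stem of their name. Of 208 AS and DT members, 204 had such a gene in the files, and HOXA-AS2, HOXC-AS2, HOXC-AS3 and HOXD-AS2 are named for a cluster. The start of a DT member lay a median of 152 bases from that of its coding gene, and 63 of 69 were within 1000 bases. For AS members the median was 11712 bases, and 100 of 135 pairs shared exon bases. The median level was 5.77 CPM for AS members and 7.81 CPM for their coding genes. For DT members and their coding genes it was 4.62 and 12.4 CPM. Members needed a mean of 10 counts, whereas the coding genes had no minimum. Per kilobase of exon, the member was less abundant than its coding gene in 87 of the 204 pairs. Since each read is 1 RNA strand, that division by length does not compare numbers of molecules. In 131 pairs both genes were tested. In 19 pairs the coding gene had 0 counts in every library while its noncoding RNA was detected. Reads on exons shared with another gene on the same strand were left uncounted. Whether that applied to these coding genes was not tested.

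Across the 131 pairs, log2 fold changes of member and coding gene correlated weakly (Pearson's coefficient 0.21, Spearman's coefficient 0.32, a description over genes that share the same 6 libraries). For the 81 AS pairs Pearson's was 0.11 and Spearman's 0.29, and for the 50 DT pairs Pearson's was 0.55 and Spearman's 0.37. Where starts lay within 1000 bases (73 pairs), Pearson's was 0.49 and Spearman's 0.45, against 0.08 and 0.20 for the 58 pairs with starts farther apart. Both genes were called in the same direction in 2 pairs and in opposite directions in none. In 7 pairs the noncoding RNA alone was called and in 9 the coding gene alone.

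**Figure D4:**
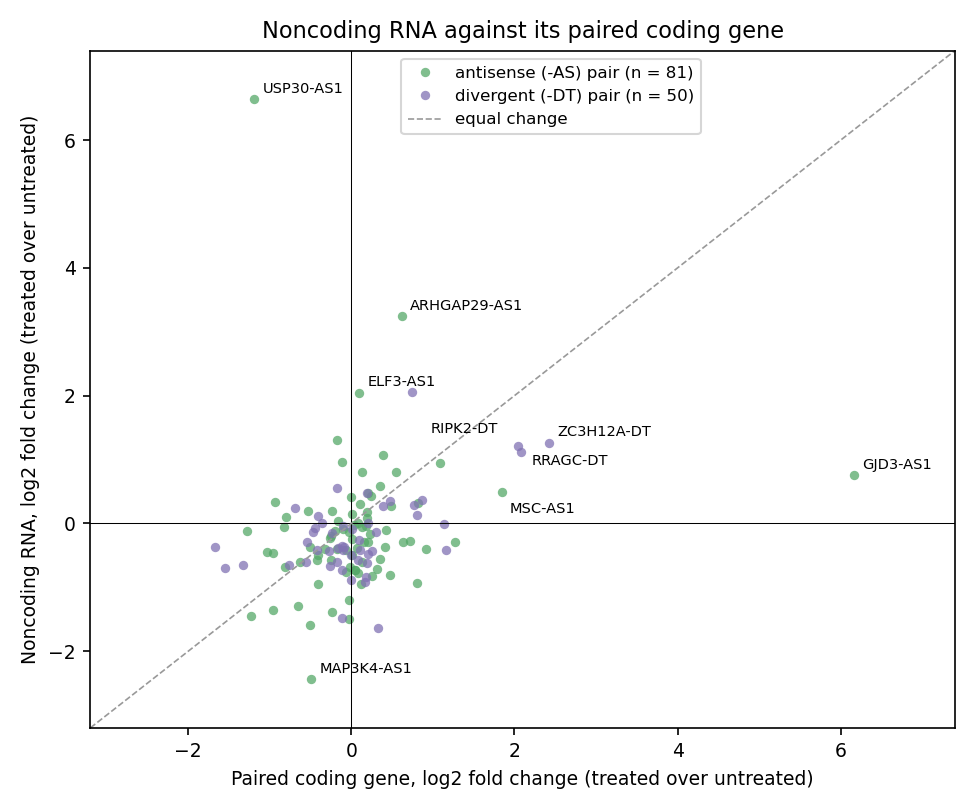
Log2 fold change (treated over untreated) of each noncoding RNA against that of its paired coding gene, 1 point per pair in which both were tested (green, 81 AS pairs; purple, 50 DT pairs), with the line of equal change dashed. USP30-AS1 stands at 6.64 over a USP30 value of -1.19, GJD3-AS1 at 0.75 beside a GJD3 value of 6.16, and most pairs lie near the centre.

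ZC3H12A-DT and ZC3H12A rose together on either side of the window printed above. ZC3H12A encodes an RNase, Regnase-1, that degrades messenger RNAs of inflammatory genes. ZC3H12A-DT (chr1:37350934-37474432, minus strand) had 10.2, 11.6 and 8.43 CPM untreated and 22.5, 23.7 and 26.5 CPM treated (log2 fold change 1.26, SE 0.23, adjusted p = 0.0103, edgeR; adjusted p = 0.0564 without treated replicate 3). ZC3H12A had 6.55, 7.76 and 5.24 CPM untreated and 41.6, 31.6 and 32.2 CPM treated (log2 fold change 2.43, SE 0.26, adjusted p = 4.51e-04, edgeR). The coding gene rose more, so the log2 ratio of divergent to coding RNA moved from 0.63 to -0.52 and was lower in every treated library. In the other pair called together, SLC44A3 fell with SLC44A3-AS1, from 25.7, 24.3 and 37.1 CPM to 15, 15.8 and 14.0 CPM (log2 fold change -0.96, SE 0.24, adjusted p = 0.0436, edgeR), although their starts lie 35084 bases apart. Both of these calls were lost on leaving out any of the 6 libraries.

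In other pairs the coding gene alone passed the test. GJD3, the gene of a connexin, had 0, 0 and 1 counts in the untreated libraries and 9.24, 8.35 and 6.85 CPM in treated replicates 1, 2 and 3, a ratio of 98.5 (95% exact interval 17.3 to 3933, counting error only; edgeR adjusted p = 5.05e-04). GJD3-AS1, which shares 2094 exon bases with it on the other strand, went from 26.7, 19.4 and 26.6 CPM to 46.5, 39.7 and 36.5 CPM, without overlap but not called (log2 fold change 0.75, SE 0.22, adjusted p = 0.0731, edgeR). RIPK2, a kinase of NOD receptor signalling to NF-kappaB, had 28.8, 26.6 and 53.3 CPM untreated and 102, 188 and 161 CPM treated (log2 fold change 2.05, SE 0.33, adjusted p = 0.00483, edgeR). RIPK2-DT, whose start lies 6 bases away, was low, at 2.88, 1.03 and 1.82 CPM untreated and 3.75, 5.87 and 3.71 CPM treated (log2 fold change 1.22, SE 0.46, adjusted p = 0.174, edgeR). RRAGC, a GTPase that signals amino acids to mTORC1, rose from 2.36, 2.07 and 4.10 CPM to 8.95, 12.4 and 15.4 CPM (log2 fold change 2.09, SE 0.38, adjusted p = 0.00970, edgeR), and RRAGC-DT overlapped between groups (0.524, 1.03 and 6.83 CPM untreated, 3.47, 1.58 and 14.0 CPM treated).

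Coding genes of the remaining pairs called alone were higher for CBR3, a carbonyl reductase (log2 fold change 1.28, SE 0.25, adjusted p = 0.0130, edgeR), GMDS, an enzyme of GDP-fucose synthesis, MSC, a basic helix-loop-helix factor (log2 fold change 1.84, SE 0.41, adjusted p = 0.0256, edgeR), MVP, the major vault protein, and P3H2, a collagen prolyl hydroxylase (log2 fold change 0.92, SE 0.17, adjusted p = 0.00903, edgeR). DPH5, of diphthamide synthesis, was lower (log2 fold change -0.77, SE 0.18, adjusted p = 0.0313, edgeR). MVP-DT lay higher in every treated library, at 1.05, 0.517 and 3.64 CPM untreated and 6.64, 5.87 and 9.98 CPM treated, but did not pass (log2 fold change 2.05, SE 0.59, adjusted p = 0.0734, edgeR). MVP-DT was called without untreated replicate 3, the high untreated library. It was also called with DESeq2, limma voom, the replicate block, and on testing every gene with at least 1 count. MVP lost its call in 6 of 13 alternative analyses. CBR3-AS1 and P3H2-AS1 had small negative values, log2 fold changes of -0.29 and -0.40, neither called by edgeR (adjusted p = 0.811 and 0.543).

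The log2 ratio of noncoding to coding counts, in which depth cancels, was higher in every treated library in 6 of the 131 pairs and lower in every treated library in 28. By their own levels, 24.7% of tested members and 8.45% of tested paired coding genes lay lower without overlap. The shares that lay higher were 12.5% and 12.7%. No share over other pairs of genes was computed for this ratio. No single pair can pass a test on this ratio, because 3 against 3 libraries allow no exact 2-sided permutation p under 0.1 (0.385 adjusted over the pairs). Treated minus untreated, the ratio of USP30-AS1 over USP30 was 7.51, that of ARHGAP29-AS1 over ARHGAP29 2.49 and that of ELF3-AS1 over ELF3 2.04. ST7-AS1 over ST7, named for suppression of tumorigenicity, had 1.42, and MVP-DT over MVP had 1.67 with overlapping groups. On the side of a lower ratio, GJD3-AS1 over GJD3 had -4.76, MAP3K4-AS1 over MAP3K4 -2.18, BOLA3-DT over BOLA3 (a gene of iron-sulfur cluster assembly) -2.05, TBX2-AS1 over TBX2 (a T-box factor) -1.74 and INSIG1-DT over INSIG1 (a regulator of sterol sensing) -1.44. The sizes for USP30-AS1 and GJD3-AS1 depend on the pseudocount, because USP30-AS1 and GJD3 had at most 1 count in each untreated library. With 2 in place of 0.5 they were 6.10 and -3.17, and that of ARHGAP29-AS1 was 1.90.

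LINC RNAs have no coding gene in their name, so the nearest coding gene was taken instead. For 4 of the 10 called LINC RNAs that gene was tested, and none was called. EFNB2, nearest to LINC00460, had a log2 fold change of -1.06 (edgeR adjusted p = 0.119), FGGY, nearest to LINC01358, -0.43 (edgeR adjusted p = 0.534), QRSL1, nearest to LINC02532, 0.10 (edgeR adjusted p = 0.882) and EZR, nearest to LINC02901, 0.07 (edgeR adjusted p = 0.902). In that order these genes lay 105430, 56083, 36911 and 50480 bases away. Of the 44 tested neighbours of LINC members 4 were called (9.09%, against 8.14% of all genes), and in each case the LINC RNA was not. CEBPB, a transcription factor of inflammation near LINC01273, and JADE2, near LINC01843, were higher, with log2 fold changes of 2.55 and 1.47 (edgeR adjusted p = 3.53e-04 and 0.00460). SAMD11, near LINC01128, and BCL7A, near LINC02985, were lower, at -2.42 and -1.29 (edgeR adjusted p = 0.00184 and 0.0468). CEBPB, JADE2, SAMD11 and BCL7A lay 14154, 15083, 64477 and 1262 bases from their LINC RNAs.

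Noncoding RNAs that are linked with these pathways in other cells were looked up as lists. Of 19 linked with interferon or NF-kappaB, 17 had a symbol in the files, 5 were at 0 in all libraries and 5 were tested. Of those, 3 were higher: USP30-AS1, BISPR, an interferon-induced RNA beside BST2 (0.262, 1.29 and 1.59 CPM untreated, 6.93, 5.64 and 4.85 CPM treated; edgeR adjusted p = 0.0216) and GBP1P1, a guanylate-binding protein pseudogene listed at 0 in untreated and at 69.6, 78.5 and 59.3 CPM in treated libraries (edgeR adjusted p = 2.72e-05). GBP1P1 resembles its coding relatives in sequence, so how reads were shared with them is uncertain. MIR22HG and LUCAT1 were tested and not called (edgeR adjusted p = 0.711 and 0.511). USP30-AS1 is the one member of this list that fits the name and count rule.

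Of 12 hypoxia-linked noncoding RNAs found, 5 were tested and 1 was higher, CYTOR (3.67, 2.33 and 2.28 CPM untreated, 9.53, 14.9 and 6.56 CPM treated; log2 fold change 1.91, SE 0.41, adjusted p = 0.0221, edgeR). LINC01116, the member on that list, was not. UCA1 had 73.6, 69.0 and 79.0 CPM untreated and 45.6, 46.0 and 51.6 CPM treated (log2 fold change -0.63, SE 0.17, adjusted p = 0.0606, edgeR). Of 21 abundant or housekeeping noncoding RNAs, many of them hosts of small nucleolar RNAs, 16 were tested and 1 was lower, SNHG29 (648, 555 and 648 CPM untreated, 397, 381 and 431 CPM treated; log2 fold change -0.61, SE 0.16, adjusted p = 0.0454, edgeR). Their median log2 fold change was -0.33, against -0.24 for the 263 tested members. The list's sum was 1111 to 1336 CPM in untreated and 923 to 938 CPM in treated libraries, groups that do not overlap. Without SNHG29 it was 556 to 688 CPM untreated and 493 to 558 CPM treated, and the groups overlapped. The 2 members on that list, EPB41L4A-AS1 and OIP5-AS1, had log2 fold changes of -0.81 and -0.76 (edgeR adjusted p = 0.203 and 0.403).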

How the data were processed

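Read counts per gene were deposited by the authors for 6 libraries. Per the file headers they were made with featureCounts 2.0.1 in long-read mode, by strand, over exons of Ensembl release 105 on GRCh38. The submitters' processing notes name minimap2 2.24, SAMtools 1.16, featureCounts 2.0.0 and hg38. Reads had a quality above 7, per the series design text, and 500 ng of poly(A) RNA was sequenced for 72 h per library, per the labels' protocols. No option for reads on several genes was set in the headers, so reads touching exons of more than 1 gene on a strand were by default left uncounted: 18 members share such bases. The header's alignment names carry the word dmso, while the labels name no vehicle.

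Symbols came from a name table holding 61369 of 61541 identifiers, and otherwise from GENCODE 29, where they gave 159 names. By GENCODE 29 names 184 of the 281 members also fit. Members, gene lists and motifs were chosen with earlier results of these data known. Named are the called members, the 5 most abundant, 3 on each side of the count limit, list members with a mean of 10 or more counts, the paired coding genes, and the 5 pairs on each side with the largest difference in fold change. HOXC genes, HOXC-AS1, neighbours of LINC RNAs, SNHG29, UCA1, CYTOR, BISPR and other single genes outside that rule were named after their values were seen.

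edgeR 4.0.16 (R 4.3.3) was used with TMM, filterByExpr, the quasi-likelihood test with group as the sole term, and Benjamini-Hochberg adjustment over 10067 genes, and was tested on simulated data. The SE is the absolute log2 fold change over the square root of F. Pair ratios are log2 of counts with 0.5 added to each. Overlaps used bedtools 2.31.1. Chi-square per degree of freedom between replicates was 3.48 to 24.7, above sampling noise, so none was merged. The alternatives were DESeq2 1.42.0 and its size factors, limma 3.58.1 voom, library totals, 2 other filters, leaving out genes with same-strand overlap, a replicate block, leaving out each library, and a pseudocount of 2. Names by GENCODE 29 and a minimum mean of 20 counts were added after the data were seen.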

Additional observations from a re-analysis of the deposited data

How the results depend on the processing

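Leaving out each library in turn gave 9 to 17 members called higher and 4 to 22 lower, 4 to 10 paired coding genes higher and 0 to 2 lower, 358 to 733 of all genes higher and 96 to 445 lower, and 7 to 15 pairs with the ratio higher and 31 to 42 with it lower in every treated library, where fewer libraries had to agree. Of the 26 called members, 18, 14 and 25 were still called without untreated replicates 1, 2 and 3, and 18, 16 and 12 without treated replicates 1, 2 and 3. Testing every gene with at least 1 count gave 19 members lower, 7 paired coding genes lower, 849 of all genes higher and 479 lower. With library totals 5 paired coding genes were lower, with DESeq2 4 and with limma voom 1, and the summed CPM of members differed by -646.7. The difference, treated minus untreated, in the log2 ratio of MMP25-AS1 over MMP25 was 0.0312 with a pseudocount of 2 and -1.53 with 0.5, and that of USP2-AS1 over USP2 -0.32 and 0.77. The cause of these shifts was not tested. Members whose GENCODE 29 name also fits gave 12 higher and 8 lower, and a mean of 20 or more counts 11 and 10, both chosen after seeing the data.

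Same-numbered libraries did not deviate together in every pair (correlations of 0.65, -0.0037 and 0.37), so the numbers were not taken to pair the samples. With the number as a replicate block, 20 members were higher and 29 lower, 15 paired coding genes higher and 12 lower, 907 of all genes higher and 606 lower. Paired by number, 18 pair ratios were higher and 45 lower in all 3 pairs, and the summed CPM of members differed by -444.6.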
